A study of Mus musculus with 12 samples.

Results

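The STAT genes encode the signal transducers and activators of transcription, and 6 of them, Stat2, Stat3, Stat4, Stat5a, Stat5b and Stat6, were taken by symbol from the 33531 genes measured by RNA sequencing in each of 12 libraries. The cells were CMM-tetON-shStat3, a mouse acute myeloid leukaemia (AML) line whose title names an inv(16) leukaemia. The line name gives a hairpin RNA against Stat3 under a tetracycline-responsive promoter, and all 4 groups carried it. Cells were given by vein to immunodeficient NSG mice, which lack mature lymphocytes of their own, and dosing started once leukaemia cells made up about 1% of blood cells. The groups were PBS, CpG1668 (a DNA oligonucleotide that stimulates the receptor TLR9), doxycycline (Dox, the inducer of the promoter) and CpG1668 with doxycycline (CpG1668+Dox), with 3 libraries each. One label gives 6 daily treatments and another gives 3 on alternate days, so the schedule is uncertain. Leukaemia cells, recognised by their GFP and mCherry, were sorted out of the spleen 1 day after the last treatment. The age of the mice, the number of clones in the line and whether each library came from its own mouse are not stated by the labels, so p-values measure the spread between libraries.

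STAT proteins wait in the cytoplasm until a cytokine binds its receptor. Janus kinases (JAKs) bound to the receptor then phosphorylate the STAT, which pairs with another STAT, enters the nucleus and binds DNA. SOCS proteins, themselves made from STAT target genes, and several phosphatases shut the signal down. In blood cells Stat3 follows interleukin 6 and G-CSF, Stat5a and Stat5b follow interleukin 3, GM-CSF and erythropoietin, Stat6 follows interleukin 4, Stat4 follows interleukin 12, and Stat2 follows type I interferon. Because STAT proteins are switched by phosphorylation, the level of a transcript does not give the activity of its protein.

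The upstream sequences of 3 members are shown because Stat3 is the gene the hairpin names, and because Stat2 and Stat4 were the members with a match to a searched interferon-type motif. They come from the RefSeq table for GRCm38.p6 and end at the annotated start. The searched motifs were TTCNNNGAA, the palindrome that STAT pairs bind, the same palindrome with a spacer of 4 bases in place of 3, and the core of the interferon-stimulated response element, which is GAAA, any 2 bases and GAAA again, bound by the complex of Stat2 and Irf9. Both strands were searched. Capitals mark matches.
Stat2, chr10:128270248-128270497, plus strand: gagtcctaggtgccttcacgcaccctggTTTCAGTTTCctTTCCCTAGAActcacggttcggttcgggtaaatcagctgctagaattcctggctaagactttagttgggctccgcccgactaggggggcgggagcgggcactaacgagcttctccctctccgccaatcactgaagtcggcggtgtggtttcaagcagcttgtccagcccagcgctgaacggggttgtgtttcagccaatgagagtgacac
Stat3, chr11:100939541-100939790, minus strand: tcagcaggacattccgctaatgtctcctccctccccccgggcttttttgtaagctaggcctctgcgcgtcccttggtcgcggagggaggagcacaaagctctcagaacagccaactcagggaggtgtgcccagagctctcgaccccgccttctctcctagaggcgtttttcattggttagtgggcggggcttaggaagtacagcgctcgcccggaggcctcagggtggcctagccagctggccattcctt
Stat4, internal start, chr1:52007990-52008239, plus strand: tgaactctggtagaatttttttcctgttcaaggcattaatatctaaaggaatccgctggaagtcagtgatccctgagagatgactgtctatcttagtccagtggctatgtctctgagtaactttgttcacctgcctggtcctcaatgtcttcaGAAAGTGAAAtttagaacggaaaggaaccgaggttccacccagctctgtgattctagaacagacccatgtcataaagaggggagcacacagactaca
In Stat2 the match TTTCAGTTTC, which is the response element core on the antisense strand, began 222 bases before the start, and TTCCCTAGAA, the palindrome with the longer spacer, began 210 bases before it without overlapping the first. The internal window of Stat4 held GAAAGTGAAA 97 bases before its start. The other windows of the family held no match to these letters. Of 32851 promoter windows of 300 bases, 3.44% held the response element core, 6.95% the palindrome with the longer spacer and 8.3% TTCNNNGAA, so such matches are descriptions and do not show binding.

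Per unit of length, 4 of the 6 genes stood close together. Values are RPKM, reads per length of gene and size of library, as the authors computed them. Averaged over the 12 libraries Stat5b was highest at 23.3 RPKM, followed by Stat6 at 18.6, Stat5a at 18.6, Stat3 at 18.4, Stat2 at 5.73 and Stat4 at 0.136. Among the 12167 genes with a mean of at least 1 RPKM, which were the genes tested, Stat5b stood at the 81.3 percentile, Stat3, Stat5a and Stat6 between the 76.6 and 76.9 percentiles and Stat2 at the 41.6 percentile. The summed family level ran from 79.5 to 88.3 RPKM per library, and Stat4 added little to it. The estimated depth of 30460000 to 35040000 reads per library makes the 5 higher members well counted, whereas Stat4 was near the counting limit.

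Stat3, the gene the hairpin names, was not lower in the libraries labelled Dox. Its RPKM was 17.9, 16.8 and 16.9 with PBS, 17.6, 18.5 and 18.4 with CpG1668, 18.8, 19.1 and 18.8 with Dox, and 19.7, 19.4 and 19.0 with CpG1668+Dox. All 6 libraries labelled Dox or CpG1668+Dox, from 18.8 to 19.7 RPKM, lay above the other 6, from 16.8 to 18.5 RPKM, and 2.55% of all tested genes separated the same 2 sets of 6 libraries in either direction. The mean was 18.9 ± 0.173 RPKM (SD, n = 3) with Dox against 17.2 ± 0.576 (SD, n = 3) with PBS, a level 9.99% higher, and 19.4 ± 0.331 (SD, n = 3) with both agents, 12.6% higher. By limma on log2(RPKM + 1), the log2 change from PBS was 0.13 (95% interval 0.06 to 0.20, adjusted p = 0.044) with Dox and 0.16 (95% interval 0.09 to 0.24, adjusted p = 0.0068) with CpG1668+Dox. The call with Dox alone was kept in only 2 of the 12 fits that left out a library, with adjusted p from 0.0329 to 0.153 over them, and in 3 of 8 other settings, while the call with both agents was kept in all 12 and in all 8. CpG1668 alone gave 0.08 (95% interval 0.00 to 0.15, adjusted p = 0.23), which did not pass. A hairpin of this kind usually lowers its target transcript, which was not seen here, so Dox here and in the text that follows names the label of the libraries, and no direction in the text is drawn from a loss of Stat3. The level of the Stat3 protein was not measured in the files used here.

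Stat3 lies at chr11:100885098-100939540 on the minus strand (ENSMUSG00000004040.16, GENCODE M21, GRCm38). Its 3′ end overlaps that of Stat5a, at chr11:100859351-100885169 on the plus strand (ENSMUSG00000004043.14), by 72 bases. No source used here says whether the counting used strand, so reads in those bases cannot be assigned to one gene. The ratio of the level of Stat3 to that of Stat5a was 0.922 ± 0.00686 (SD, n = 3) with PBS, 0.998 ± 0.0201 (SD, n = 3) with CpG1668, 0.992 ± 0.00755 (SD, n = 3) with Dox and 1.06 ± 0.0272 (SD, n = 3) with both. Stat3 thus went from below to above its neighbour, in ratios taken within each library and so free of library scaling.

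Stat2, which joins Irf9 and a partner STAT protein in the complex that drives interferon-stimulated genes, was lowest with PBS. Its RPKM was 5.14, 4.54 and 5.21 with PBS, 5.79, 6.37 and 5.90 with CpG1668, 5.79, 5.96 and 5.96 with Dox, and 5.48, 6.16 and 6.47 with CpG1668+Dox. No PBS library reached any treated library, and the 3 treated groups overlapped one another. Libraries of PBS and of CpG1668, Dox and CpG1668+Dox did not overlap for 25.6%, 25% and 35.3% of all tested genes. Mean levels were 21.3% (CpG1668), 19.0% (Dox) and 21.7% (both) above the PBS mean of 4.96 ± 0.370 RPKM (SD, n = 3). The limma log2 change was 0.24 (95% interval 0.10 to 0.37, adjusted p = 0.043) with CpG1668, 0.24 (95% interval 0.11 to 0.37, adjusted p = 0.020) with CpG1668+Dox and 0.21 (95% interval 0.08 to 0.35, adjusted p = 0.063) with Dox, of which the last did not pass. The CpG1668 call was kept in 2 of 12 fits without a library, with adjusted p from 0.0296 to 0.152, and the CpG1668+Dox call in 9 of 12. It was lost without PBS replicate 2, CpG1668+Dox replicate 2 or CpG1668+Dox replicate 3, with adjusted p up to 0.0799. The interaction, whether both agents together departed from the sum of each alone, was -0.21 for Stat2 (unadjusted p = 0.030, adjusted p = 0.72 by limma) and did not pass.

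Stat6, the transducer of interleukin 4 and interleukin 13, stood highest with both agents. Its RPKM was 17.9, 18.2 and 17.8 with PBS, 17.9, 18.3 and 17.8 with CpG1668, 19.3, 18.1 and 19.1 with Dox, and 20.05, 19.6 and 19.6 with CpG1668+Dox. The CpG1668+Dox libraries lay above every other library, whereas the other 3 groups overlapped. A gap between CpG1668+Dox and a single other group, in either direction, was seen in 35.3% of all tested genes for PBS, 20.4% for CpG1668 and 19.1% for Dox. The share of tested genes with CpG1668+Dox apart from every other library at once was not computed. The mean of 19.8 ± 0.252 RPKM (SD, n = 3) was 9.99% above the PBS mean of 17.96 ± 0.205 (SD, n = 3), a limma log2 change of 0.13 (95% interval 0.06 to 0.20, adjusted p = 0.015). This call was lost without PBS replicate 3 or CpG1668+Dox replicate 1, with adjusted p up to 0.0609, and was kept in the other 10 fits. Against CpG1668 alone the log2 change was also 0.13, with an adjusted p of 0.052 by limma that did not pass.

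Stat5a and Stat5b, near-identical copies that carry erythropoietin, interleukin 3 and GM-CSF signals, were not called in any comparison. Stat5a gave 19.5, 18.1 and 18.3 RPKM with PBS, 18.02, 18.6 and 18.03 with CpG1668, 19.1, 19.1 and 19.0 with Dox, and 18.3, 18.9 and 17.9 with CpG1668+Dox. Stat5b gave 24.1, 21.8 and 23.1 RPKM with PBS, 22.5, 24.0 and 22.0 with CpG1668, 24.5, 23.6 and 23.7 with Dox, and 23.8, 24.0 and 23.0 with CpG1668+Dox. PBS overlapped every other group for both genes, and the Dox libraries of Stat5a lay just above those of CpG1668 and of CpG1668+Dox, gaps seen in 19.5% and 19.1% of all tested genes. For CpG1668+Dox against PBS the log2 change was -0.02 for Stat5a (95% interval -0.10 to 0.06) and 0.04 for Stat5b (95% interval -0.06 to 0.13), so changes of the size of the Stat2 estimate lay outside these intervals. The longest coding transcripts of the pair share 15.8% of the 50-base stretches of Stat5a and 11.8% of those of Stat5b, where the authors' counting could split reads between them. Their levels added together gave a log2 change of 0.01 (95% interval -0.07 to 0.10) for CpG1668+Dox against PBS. Stat5b lies at chr11:100780731-100850724 (ENSMUSG00000020919.11, minus strand), 8626 bases from Stat5a.

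Stat4, the transducer of interleukin 12 in lymphocytes, was barely detected but highest with both agents. Its RPKM was 0.0244, 0.0639 and 0.0611 with PBS, 0.0879, 0.0741 and 0.111 with CpG1668, 0.0452, 0.0951 and 0.126 with Dox, and 0.292, 0.208 and 0.443 with CpG1668+Dox. At the estimated depth these values stand for about 2 to 12 reads in the first 9 libraries and for 29, 21 and 41 reads with CpG1668+Dox, and the first PBS library lay under the level that 3 reads give. The CpG1668+Dox libraries did not overlap any other group, as in 3.15% of the 21364 genes with a mean above 0 and under 1 RPKM. Their mean of 0.314 ± 0.119 RPKM (SD, n = 3) was 6.31 times the PBS mean of 0.0498 ± 0.0220 (SD, n = 3). Stat4 missed the filter of 1 RPKM. In a limma fit of all genes without the filter its log2 change was 0.32 (adjusted p = 0.0080) against PBS, 0.27 (adjusted p = 0.0497) against Dox and 0.26 (adjusted p = 0.073) against CpG1668, and the pseudocount makes these smaller than the ratio of levels, since with 0.1 in place of 1 the first was 1.44. Over the 12 fits without a library the call against PBS was kept in all 12 and the call against Dox in 1 of 12, with adjusted p from 0.0112 to 0.163. Against CpG1668 the difference passed only without CpG1668+Dox replicate 2 (adjusted p = 0.0216 by limma, up to 0.206 in the others). Its interaction did not pass (0.21, adjusted p = 0.84). Of 13 T cell markers none reached a mean of 1 RPKM, Cd3e peaked at 0.0158 RPKM and the summed list ran from 0.577 to 0.952 with PBS and from 1.03 to 1.20 with CpG1668+Dox. Of 11 natural killer cell markers 9 were under a mean of 1 RPKM, Ncr1 peaked at 0.0941, and the sum, mostly Nkg7 and Gzmb, ran from 21.02 to 27.4 with PBS and from 26.3 to 35.3 with CpG1668+Dox. The part of T and natural killer cells in the Stat4 level was not tested.

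**Figure D1:**
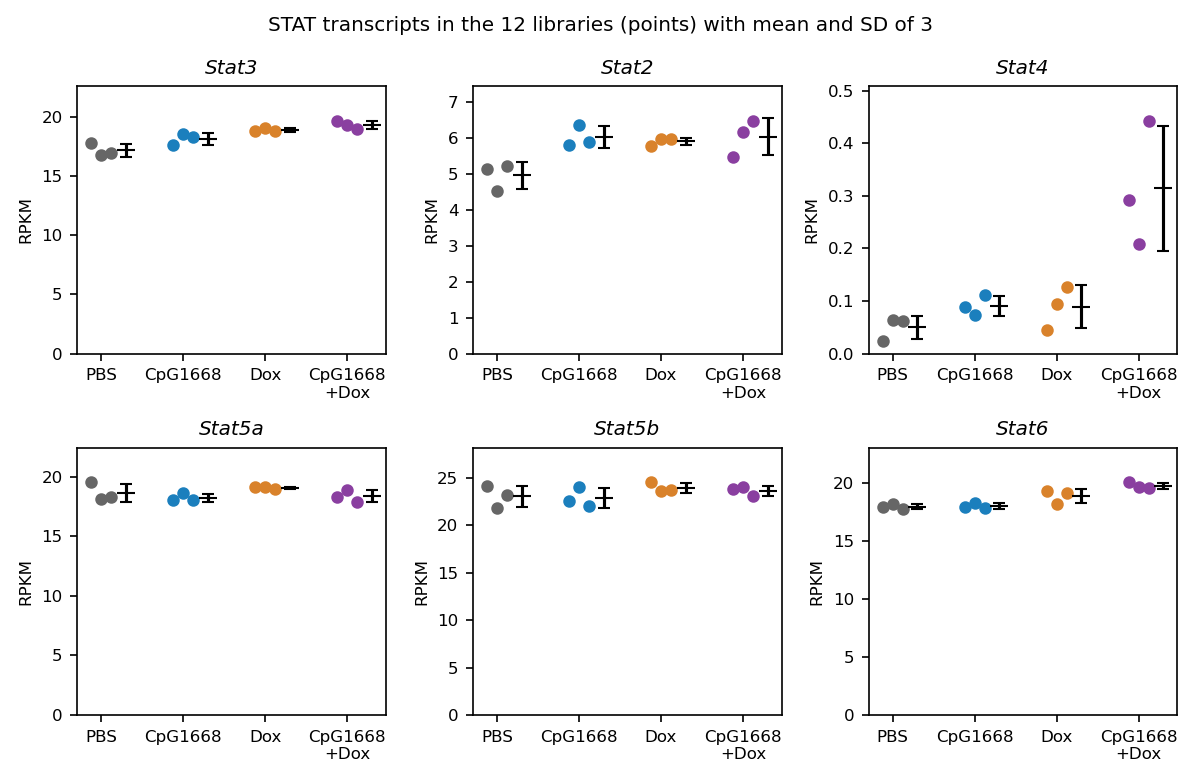
RPKM of the 6 STAT genes (vertical axes from 0, scaled per gene) in the 12 libraries by group, each point a library, with the mean and SD of 3 libraries as a bar beside it. Stat3 runs from 16.8 to 19.7 RPKM with the 6 libraries labelled Dox or CpG1668+Dox above the rest, and Stat4 stays under 0.5 RPKM with the CpG1668+Dox libraries highest.

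Counted together, 1 of the 5 tested STAT genes was called higher with CpG1668 (Stat2), 1 with Dox (Stat3) and 3 with CpG1668+Dox (Stat2, Stat3 and Stat6), and none was lower. Of all tested genes 3.06%, 3.95% and 9.13% were called higher in the same comparisons, and 2.83%, 2.04% and 6.4% lower. Called in either direction were 5.88% of all genes with CpG1668, 5.98% with Dox and 15.5% with CpG1668+Dox. The median log2 change of the 5 was 0.00, 0.07 and 0.13, beside -0.01, 0.01 and 0.00 for all tested genes. These comparisons share the PBS libraries, so their calls are not independent of one another. No STAT gene was called in CpG1668+Dox against CpG1668, against Dox, or in CpG1668 against Dox, where 3.26%, 3.48% and 1.56% of all genes were called, and 2 STAT genes (Stat3 and Stat6) had an unadjusted p under 0.05 in the first of these. For the interaction limma called 0 genes of the whole table, with 812 at an unadjusted p under 0.05, Stat2 among them.

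**Figure D2:**
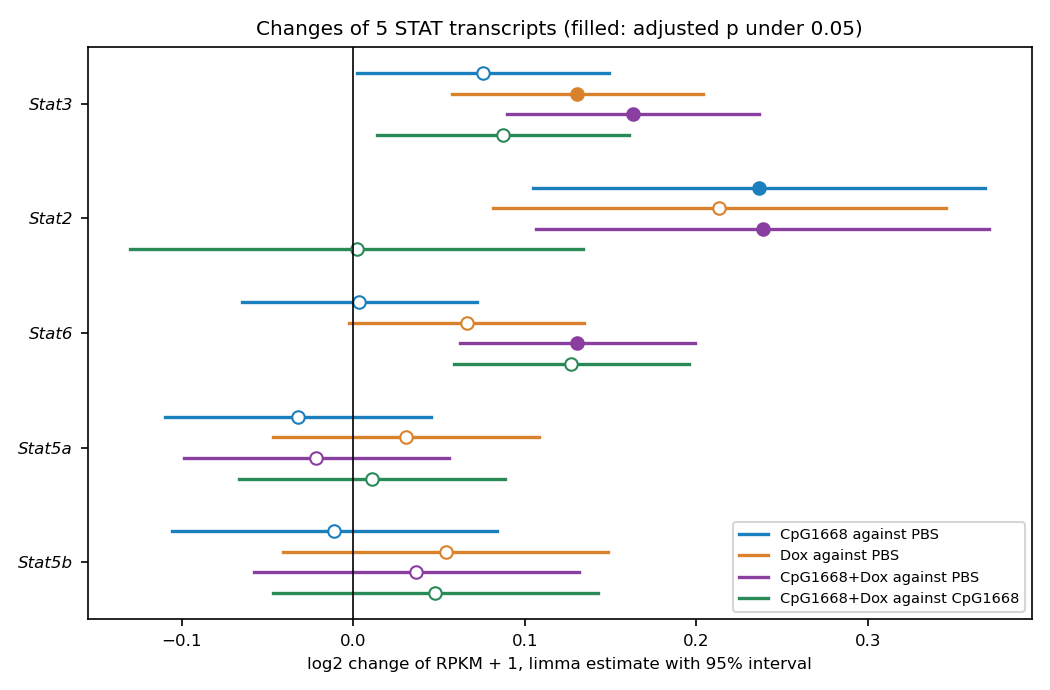
Limma log2 changes of RPKM + 1 (horizontal axis) for 5 STAT genes in 4 comparisons, with points for estimates, lines for 95% intervals and filled points for adjusted p under 0.05. The CpG1668+Dox intervals of Stat2, Stat3 and Stat6 lie above 0 with estimates of 0.24, 0.16 and 0.13, and those of Stat5a and Stat5b cross it.

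An exact permutation test with each label shuffled within the strata of the other agent asked for the difference between 6 libraries with a label and 6 without, with 400 arrangements, 12 such tests and a smallest possible p of 0.005, all two-sided and unadjusted. For the Dox label Stat3 reached that smallest exact permutation p of 0.005, with a log2 difference of 0.11. Stat6 gave 0.10 (exact permutation p = 0.01) and Stat4 gave 0.16 (exact permutation p = 0.015), and Stat2, Stat5a and Stat5b gave exact permutation p of 0.085, 0.325 and 0.105. For the CpG1668 label Stat4 gave 0.16 (exact permutation p = 0.005), Stat2 0.13 (exact permutation p = 0.04) and Stat3 0.05 (exact permutation p = 0.03). Stat6, Stat5a and Stat5b gave exact permutation p of 0.05, 0.065 and 0.6. Both labels take in the CpG1668+Dox libraries, where Stat4 was highest. Fitted without the filter, Stat4 gave log2 changes from PBS of 0.056 with CpG1668 and 0.052 with Dox. Neither passed (adjusted p = 0.74 and 0.79 by limma). Among all tested genes 23.7% had such a p under 0.05 for the Dox label and 21.8% for the CpG1668 label, so a small p of this kind was common in these libraries. Stat4, which missed the filter, was not among those genes.

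Summed marker levels of several blood cell types differed by group, and in bulk samples fewer cells of a type and less RNA per cell cannot be told apart. The sum of 15 late neutrophil markers ran from 109 to 222 RPKM with PBS, 654 to 852 with CpG1668, 588 to 2342 with Dox and 1747 to 4577 with CpG1668+Dox. The sum of 15 monocyte markers ran from 35.3 to 56.99, 168 to 190, 128 to 205 and 345 to 497 RPKM in the same order. The sum of the 15 measured erythroid markers ran from 15404 to 20337, 6862 to 11189, 4028 to 8306 and 3998 to 6645 RPKM. Single genes made up much of these sums. The highest single values were 2043 RPKM among late neutrophil, 348 among monocyte and 6847 among erythroid markers. The second highest monocyte marker peaked at 32.2 RPKM. Of 14 tested late neutrophil markers 9 were called higher with CpG1668, 14 with Dox and 14 with both agents. Of all tested genes 3.06%, 3.95% and 9.13% were called higher in the same comparisons with PBS. No list had a defining marker at 0 in every library. The neutrophil and monocyte sums were lowest with PBS, as were the group means of Stat2, Stat3 and Stat4. The Stat6 mean was nearly the same with PBS (17.96 RPKM) and CpG1668 (18.01 RPKM), with overlapping libraries. Stat5a and Stat5b had their lowest means with CpG1668. The part of neutrophils and monocytes in the STAT results was not tested. Beside the AML label, Kit, a receptor of blood progenitors, ran from 15.8 to 19.7 RPKM. Of 13 leukaemia and progenitor markers 10 had a mean of at least 1 RPKM and 3 (Cd34, Meis1 and Hoxa9) were under it. Of the 10 tested, 1 was called higher and 4 lower with CpG1668, 1 and 0 with Dox, and 1 and 3 with CpG1668+Dox. Of all tested genes 2.83%, 2.04% and 6.4% were called lower in these comparisons, beside the shares called higher given above. The erythroid sum was at least 3998 RPKM in every library. Mast cell and basophil markers were also high, with 8 of 11 at a mean of at least 1 RPKM and peaks of 807 RPKM for Fcer1a, a chain of the IgE receptor, and 572 for Cpa3, a mast cell protease. Their sum ran from 1247 to 1417 RPKM with PBS, 1263 to 1352 with CpG1668, 1369 to 1713 with Dox and 1539 to 1584 with CpG1668+Dox. With both agents 3 of the 8 tested (Cpa3, Mcpt8 and Prss34) were called higher. Mcpt8 and Prss34 passed the filter of 1 RPKM only through their highest group. Without them 1 of 6 was called higher, beside 9.13% of all tested genes. The part of mast cells and basophils in the STAT results was not tested.

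Over the 12 libraries the transcripts whose log2 level ran most alike with Stat3, among 6348 genes with a mean of at least 5 RPKM, were Syngr2 (Pearson r = 0.96), Lamtor2 (r = 0.95) and Mtch1 (r = 0.94). For Stat2 they were Kmt2b (r = 0.93), Git2 (r = 0.92) and Ddi2 (r = 0.92). For Stat4 they were Arhgdib (r = 0.98), Tmem50b (r = 0.97) and Rab27a (r = 0.96), for Stat6 Gyg, Pagr1a and Rbbp4 (r = 0.88, 0.88 and 0.87), for Stat5a Esrra, Ripor1 and Foxh1 (r = 0.90 each) and for Stat5b Vps16, Hdac5 and Rab15 (r = 0.92, 0.91 and 0.89). These are the top of a ranking, the libraries fall into 4 groups and share their scaling, and the values are descriptions with no test. Arhgdib went from 234 ± 5.82 RPKM (SD, n = 3) with PBS to 281 ± 19.8 (SD, n = 3) with CpG1668+Dox.

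On the log2(RPKM + 1) scale several receptors that feed STAT proteins had larger changes than any STAT gene. That scale understates changes of low genes such as Stat4, whose CpG1668+Dox mean was 6.31 times its PBS mean. Of 36 listed cytokine receptor genes 23 were tested, and 7 were called higher and 1 lower with CpG1668, 6 higher and 0 lower with Dox, and 9 higher and 3 lower with CpG1668+Dox, with a median log2 change of 0.10 in the last. Of all tested genes 3.06% were higher and 2.83% lower with CpG1668, 3.95% and 2.04% with Dox, and 9.13% and 6.4% with CpG1668+Dox. Ifngr1, a chain of the interferon gamma receptor, rose from 1.98 ± 0.317 RPKM (SD, n = 3) with PBS to 6.15 ± 0.388 with CpG1668, 5.29 ± 0.342 with Dox and 12.5 ± 2.03 with CpG1668+Dox. Il6ra, the interleukin 6 receptor that acts through Stat3, rose from 0.271 ± 0.0347 to 1.48 ± 0.0326, 0.942 ± 0.252 and 2.69 ± 0.370 RPKM. It passed the filter of 1 RPKM only through the CpG1668+Dox group, since its mean over the other 9 libraries was under 1, and without it the receptor counts were 6 and 1, 5 and 0, and 8 and 3 of 22. Csf3r, the G-CSF receptor, rose from 0.721 ± 0.133 to 2.14 ± 0.197, 3.80 ± 0.887 and 6.68 ± 2.30 RPKM (SD, n = 3 each). The CpG1668+Dox log2 changes by limma were 2.17 for Ifngr1 (adjusted p = 3.67e-07) and 2.12 for Csf3r (adjusted p = 1.38e-05). That of Il6ra was 1.53, given without a p because Il6ra entered the test only through that group. Il6st, the shared signalling chain of the interleukin 6 family, rose with CpG1668 and with both agents but its 0.26 with Dox did not pass (adjusted p = 0.086 by limma). Il4ra, the receptor upstream of Stat6, went from 5.03 ± 0.274 to 7.07 ± 0.234 RPKM (SD, n = 3) with CpG1668+Dox. The 3 that fell with both agents were Csf2rb and Csf2rb2, shared beta chains for interleukin 3 and GM-CSF, and Epor, the erythropoietin receptor that acts through Stat5 and is also one of the erythroid markers. Ifnar2, a chain of the type I interferon receptor upstream of Stat2, and Ifngr2 were among those higher with both agents. Il9r and Il12rb2, receptor chains for interleukin 9 and interleukin 12, were called higher in Dox against PBS. The neutrophil and monocyte sums above rose across the same groups as Csf3r, Ifngr1 and Il6ra, and their part was not tested.

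Of the 4 Janus kinases Jak3 alone was called, as 1 of the 4 with CpG1668 and 1 with CpG1668+Dox. Jak3, the partner of the common gamma chain, had 5.08 ± 0.0363 RPKM (SD, n = 3) with PBS, 5.93 ± 0.175 with CpG1668, 5.43 ± 0.0233 with Dox and 6.14 ± 0.349 with CpG1668+Dox, with log2 changes of 0.19 (adjusted p = 0.019 by limma) and 0.23 (adjusted p = 0.0023) with CpG1668 and with CpG1668+Dox. Jak1 stood between group means of 26.3 and 28.0 RPKM, Jak2 between 24.1 and 25.4 and Tyk2 between 10.01 and 10.5. Among 8 tested of the other tyrosine kinases that can phosphorylate STAT proteins, 4 were higher with CpG1668, 3 with Dox and 5 with CpG1668+Dox, and 0 were lower, where 3.06%, 3.95% and 9.13% of all tested genes were higher. With lists of 4 and 8 genes a single call is already 25% and 12.5% of the list. Csf1r, the M-CSF receptor and one of the monocyte markers, went from 1.57 ± 0.539 to 9.01 ± 1.41 RPKM with both agents, and Syk, a kinase of immune receptors, from 5.41 ± 0.200 to 9.13 ± 0.590 (SD, n = 3 each).

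Among the brakes of the pathway Socs3, which binds the interleukin 6 and G-CSF receptors and is itself a Stat3 target, was called in all 3 comparisons with PBS. It had 0.580 ± 0.141 RPKM (SD, n = 3) with PBS, 1.37 ± 0.352 with CpG1668, 1.32 ± 0.432 with Dox and 2.65 ± 0.340 with CpG1668+Dox, and limma gave log2 changes of 0.58 (adjusted p = 0.037), 0.54 (adjusted p = 0.048) and 1.21 (adjusted p = 1.48e-04). Of 6 tested SOCS genes the only other call was Socs7 with CpG1668+Dox (0.18, adjusted p = 0.034 by limma). A single call is already 16.7% of such a list. Of all tested genes 3.06% were higher with CpG1668, 3.95% with Dox and 9.13% with CpG1668+Dox. Cish and Socs2, classical Stat5 targets, gave -0.14 (adjusted p = 0.37) and -0.10 (adjusted p = 0.18) with CpG1668+Dox by limma and did not pass. Of 12 tested PIAS and phosphatase genes 1 was higher with CpG1668, 1 with Dox and 3 with CpG1668+Dox, and 0 were lower, beside 3.06%, 3.95% and 9.13% of all tested genes higher. Ptprc, the leukocyte surface phosphatase CD45, rose in all 3 comparisons, and Ptpn1 and Ptpn6, which remove phosphate from JAKs or receptors, rose with both agents. Ptpn6 reached 51.4 ± 1.97 RPKM (SD, n = 3) from 43.1 ± 1.04. Of 11 tested partner genes such as coactivators and nuclear import carriers limma called 0 with CpG1668 and 0 with Dox (6 and 3 at an unadjusted p under 0.05) and 2 with CpG1668+Dox (Ncoa1 higher, Kpna1 lower), the last being 18.2% of the list beside 15.5% of all tested genes called in either direction.

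**Figure D3:**
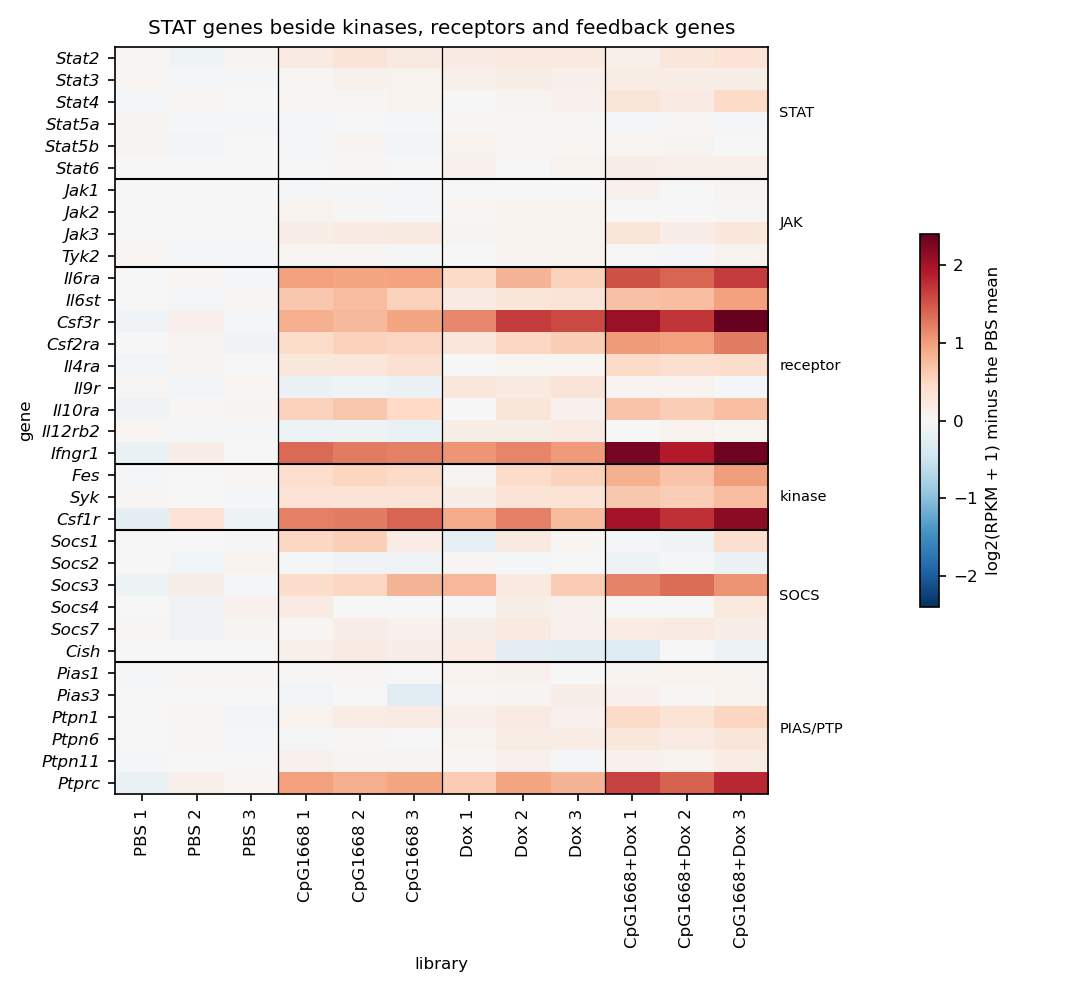
Log2(RPKM + 1) minus the PBS mean (colour) for the STAT genes and for the kinases, receptors, SOCS, PIAS and phosphatase genes named by rule (rows) in the 12 libraries (columns). STAT and JAK rows stay pale, while Ifngr1, Csf3r, Il6ra, Csf1r and Ptprc are darkest with CpG1668+Dox.

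Genes known as Stat3 targets were the list with the most calls among the target lists. All lists were chosen with earlier results of these data known, so this ranking and the counts are descriptions and not independent support. Of 18 tested, 7 were higher and 3 lower with CpG1668, 7 higher and 1 lower with Dox, and 12 higher and 3 lower with CpG1668+Dox, with a median log2 change of 0.39 in the last beside 0.00 for all tested genes. Of all tested genes 3.06% were higher and 2.83% lower with CpG1668, 3.95% and 2.04% with Dox, and 9.13% and 6.4% with both. Cebpb, a factor of myeloid maturation, rose from 2.25 ± 0.239 RPKM (SD, n = 3) with PBS to 9.47 ± 1.02 with both agents, and Tnfrsf1a, a receptor for tumour necrosis factor, from 0.585 ± 0.0802 to 6.75 ± 1.62. Saa3, an acute phase gene, had 0.177 ± 0.0565 RPKM with PBS, 1.43 ± 0.353 with CpG1668, 0.711 ± 0.0651 with Dox and 2.46 ± 0.351 with both (SD, n = 3 each), and passed the filter only through the last group. Without it 6 were higher and 3 lower with CpG1668, 6 and 1 with Dox, and 11 and 3 with both, of 17. Those that fell with both agents were the survival gene Bcl2l1, from 17.5 ± 1.16 to 11.3 ± 0.186 RPKM, the cyclin gene Ccnd2, from 54.7 ± 1.81 to 43.8 ± 1.55 RPKM, and Tgfb1. Lcn2 is also one of the late neutrophil markers.

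Of 16 tested Stat5 targets 2 fell with CpG1668 (Bcl2l1 and Ccnd2), 1 rose and 1 fell with Dox (Dusp6 and Bcl2l1), and 3 rose and 2 fell with CpG1668+Dox (Osm, Dusp6 and Mcl1, against Bcl2l1 and Ccnd2). The shares of all tested genes were 2.83% lower with CpG1668, 3.95% higher and 2.04% lower with Dox, and 9.13% higher and 6.4% lower with both. Bcl2l1, Ccnd2 and Mcl1 stand in the Stat3 list too. Of 7 tested Stat6 targets 3 rose with CpG1668, 2 with Dox and 3 with both, and 13 of the 20 listed were under 1 RPKM, while 3.06%, 3.95% and 9.13% of all tested genes were higher. Il4ra, among those that rose with CpG1668 and with both agents, stands in the receptor and Stat3 target lists too. Chil3, also one of the late neutrophil markers, rose from 6.39 ± 2.63 to 151 ± 69.8 RPKM (SD, n = 3) with both agents, and Klf4, a factor of monocyte maturation, from 0.393 ± 0.0320 to 4.64 ± 0.355. Of 5 tested Stat4 targets 0 were called with CpG1668 (2 at an unadjusted p under 0.05 by limma), 1 was higher with Dox (Il12rb2) and 1 with both agents (Hlx). Hlx had 0.599 ± 0.0908 RPKM with PBS, 0.973 ± 0.184 with CpG1668, 0.981 ± 0.125 with Dox and 1.68 ± 0.0597 with both (SD, n = 3 each). It passed the filter only through the last group, so its call supports nothing about the list, and 0 of the other 4 were called with both. Ifng and Tbx21, genes of the interleukin 12 response in lymphocytes, were under the filter.

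Among the interferon-stimulated genes, which the Stat2 complex drives, Isg15 and Rsad2 were lower and Ifi27l2a and Trim30a higher in Dox and CpG1668+Dox against PBS. Of 18 tested, 2 were higher and 0 lower with CpG1668, 2 higher and 2 lower with Dox, and 2 higher and 3 lower with CpG1668+Dox. The 2 higher with both agents are 11.1% of the list, close to the 9.13% of all tested genes, and the 3 lower are 16.7%, beside 6.4%. With CpG1668 3.06% of all tested genes were higher and with Dox 3.95% were higher and 2.04% lower. Isg15, a ubiquitin-like protein made in response to interferon, had 69.2 ± 14.9 RPKM (SD, n = 3) with PBS, 38.9 ± 11.6 with CpG1668, 23.6 ± 13.6 with Dox and 19.5 ± 5.62 with CpG1668+Dox, and Rsad2, an antiviral enzyme, had 30.3 ± 7.85, 14.9 ± 4.52, 6.65 ± 5.26 and 5.62 ± 1.59. Both fell with Dox (log2 changes -1.64 and -2.24, adjusted p = 0.021 and 0.011 by limma) and with both agents, and their lower levels with CpG1668 did not pass (adjusted p = 0.21 for each). The other gene lower with both agents was Eif2ak2, a kinase that halts translation. Ifi27l2a and Trim30a rose in all 3 comparisons, Ifi27l2a from 1.53 ± 0.301 to 8.81 ± 1.07 RPKM with both agents. Irf9, the partner of Stat2, stood between group means of 7.40 and 8.27 RPKM and was not called in any of the 3.

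**Figure D4:**
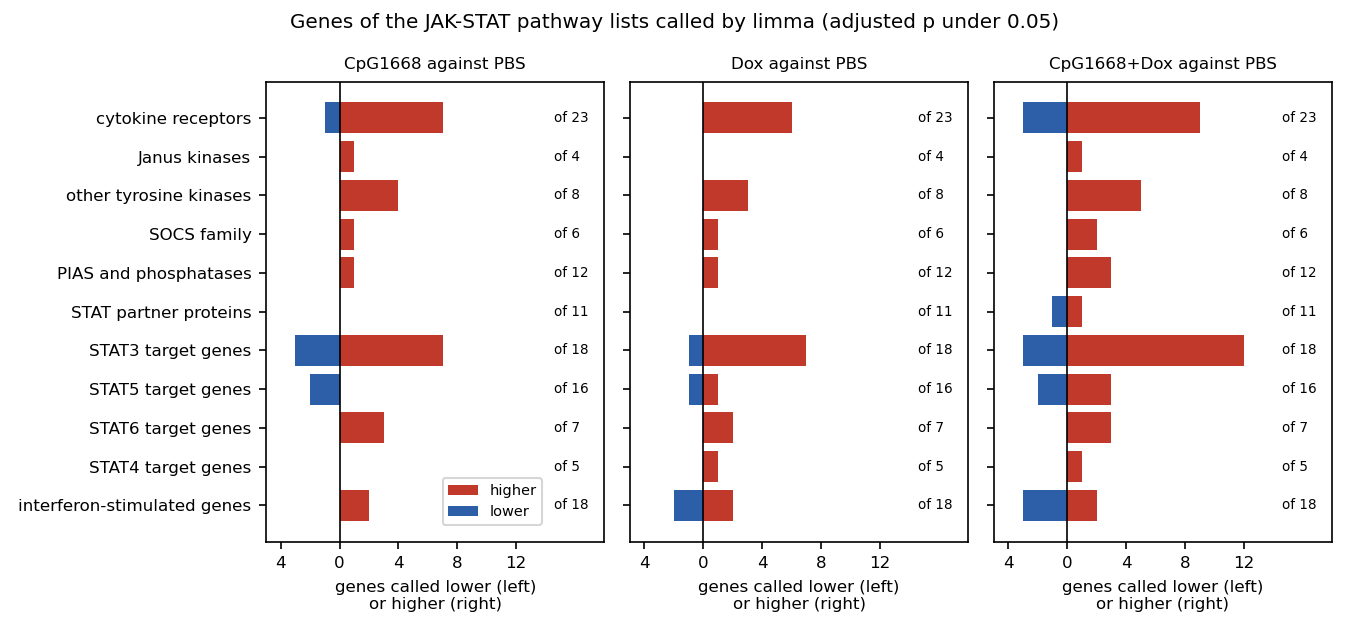
Numbers of genes called lower (bars to the left) and higher (bars to the right) by limma in 11 pathway lists for 3 comparisons with PBS, with the number tested at the right of each row. With CpG1668+Dox the Stat3 targets have 12 higher and 3 lower of 18, and the Janus kinases 1 higher of 4.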

How the data were processed

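The authors deposited RNA sequencing of 12 libraries as RPKM values. Per the submitters' processing notes, STAR 2.7.9, Partek 7.18.0723 and build mm10 were used, in steps left unstated. No source used here gives the annotation or the use of strand, and read counts were not used. Values reached down to 1.4e-45, so whole reads could not be recovered for each gene, and depth (30460000 to 35040000 reads) and the reads of Stat4 were estimated from the steps between low values. They cover counting error only. Of the symbols 96.6% matched GENCODE M21.

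Groups came from the titles. The 12167 genes whose RPKM averaged 1 or more were fitted as log2(RPKM + 1) in limma 3.58.1 (R 4.3.3), with 4 group means, 8 residual degrees of freedom, an intensity trend and Benjamini-Hochberg adjustment over all genes in each of 7 contrasts, with calls made under an adjusted p of 0.05. The fit without the filter was used for Stat4. Fold changes are on the log2(RPKM + 1) scale, which understates those of low genes. Single genes were also tested by exact permutation. The fit was tested on simulated data.

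The members, the pathway lists and the marker lists were chosen with earlier results of these data known. Named genes were the 6 members, the JAKs, Irf9, Socs3, Cish, Socs2, up to 4 genes of each list and comparison with PBS by moderated t, and the 3 closest genes by Pearson r. Counts of 5 or fewer were named in full, except where a gene is not reported here. Names outside this rule (Ifnar2, Ifngr2, Lcn2, Ifng, Tbx21 and the marker genes) were chosen after their values were seen.

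Alternatives were a pseudocount of 0.1, no filter, a filter of 5 RPKM, median-of-ratios scaling, quantile normalization, no trend, fits restricted to the groups compared, a block for the replicate number and the omission of each library in turn. Adding Stat5a to Stat5b was chosen after seeing the data. No protein sequence was used here.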

Additional observations from a re-analysis of the deposited data

How the results depend on the processing

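Across 8 alternatives Stat3 and Stat6 with CpG1668+Dox against PBS kept their calls in all 8, with log2 changes from 0.16 to 0.17 and from 0.12 to 0.14, and Stat2 in 7 of 8 (adjusted p = 0.0681 with only the groups compared). Stat4, fitted without the filter, kept its call against PBS in 5 of 6 (adjusted p = 0.0742 with only the groups compared) and its call against Dox in 1 of 6. The single STAT call with CpG1668 became 0 without a filter, with only the groups compared and with the replicate block. The single call with Dox became 0 in those settings, at a filter of 5 RPKM and without the trend. Without a filter 1 STAT gene was called in CpG1668+Dox against CpG1668 (Stat6) and 1 against Dox (Stat4). Uncalled values near 0 changed sign under median-of-ratios scaling (Stat5b with CpG1668 0.0026, and in CpG1668+Dox against CpG1668 Stat2 -0.015 and Stat5a -0.0082) and quantile normalization (0.010, -0.029 and -0.013), where Stat4 in CpG1668 against Dox also did (-0.0093). The permutation difference of Stat6 for the CpG1668 label passed 0.05 under these scalings (0.0447 and 0.0460, each exact p = 0.02, against p = 0.05). The cause of these changes was not tested.

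Counts over all genes moved with the filter, the samples fitted and the replicate block. Against PBS, Dox gave 434 without a filter, 382 at 5 RPKM and 269 with only the groups compared, CpG1668 gave 455 at 5 RPKM and 466 with only the groups compared, and CpG1668+Dox gave 1155 at 5 RPKM. CpG1668+Dox gave 185 at 5 RPKM when set against CpG1668, and 658 without a filter, 180 at 5 RPKM and 241 with only the groups compared when set against Dox. CpG1668 set against Dox gave 102 without a filter and 72 with only the groups compared, and the interaction gave 12 without a filter. Without a filter 33531 genes entered in place of 12167, at 5 RPKM fewer genes did, and with only the groups compared fewer samples did. Quantile normalization gave 328 higher and 309 lower with Dox and 984 higher and 1356 lower with CpG1668+Dox, against 480 and 248 and 1111 and 779.

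Replicate numbers were not taken as pairs in the main fit. Same-number residual correlations ran from -0.207 to 0.268 with a median of -0.059 and 2 of 18 above 0.1. Those of other numbers ran from -0.376 to 0.324 with a median of 0.023 and 9 of 36 above 0.1. Such correlations cannot show whether libraries of the same number shared a batch. With the replicate block 0 STAT genes were called with CpG1668 and 0 with Dox, and 78 genes in CpG1668 against Dox.

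Leaving out each of the 12 libraries in turn gave 0 to 1 STAT calls with CpG1668, 0 to 1 with Dox, 2 to 3 with CpG1668+Dox, and 0 to 1 for CpG1668+Dox set against CpG1668. Over all genes it gave 367 to 760 calls with CpG1668, 313 to 752 with Dox, 123 to 449 for CpG1668+Dox set against CpG1668, 249 to 414 set against Dox, 31 to 234 for CpG1668 set against Dox and 0 to 1 for the interaction. The lowest counts came without CpG1668 replicate 3 (367), Dox replicate 2 (313), CpG1668+Dox replicate 3 (123), CpG1668+Dox replicate 1 (249) and CpG1668 replicate 1 (31). Uncalled log2 changes that crossed 0 ran, with CpG1668, from -0.047 to 0.021 for Stat5b and -0.0060 to 0.012 for Stat6, and with CpG1668+Dox from -0.042 to 0.010 for Stat5a. For CpG1668+Dox set against CpG1668 they ran from -0.043 to 0.060 for Stat2 and -0.0093 to 0.027 for Stat5a, and set against Dox from -0.020 to 0.083 for Stat2 and -0.029 to 0.00056 for Stat5b. For CpG1668 set against Dox Stat2 ran from -0.012 to 0.046 and Stat4 from -0.025 to 0.028. For the interaction Stat5a ran from -0.052 to 0.00026 and Stat5b from -0.038 to 0.030. Depth limits the reading of Stat4, whose 3-read limit was 0.0287 to 0.0330 RPKM, and of other genes at such levels, among them Cd3e and Ncr1, listed at 0 in 7 and 5 libraries.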
